A study of Mus musculus with 6 samples.

Results

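The 6 genes described here are the prominins Prom1 and Prom2 and the surface antigens Cd44, Cd24a, Ly6a and Alcam, which are widely used as labels of progenitor cells. They are found by gene symbol, and every probe set assigned to one of them alone was taken, although the genes themselves were picked with earlier results of these data known. The rule found 15 of the 45037 probe sets tested, with 1 for Prom1, 2 for Prom2, 4 for Cd44, 3 for Cd24a and 5 for Alcam. No probe set is assigned to Ly6a alone in the annotation used here, so Ly6a, which encodes the lymphocyte antigen Sca-1, is given no value.

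The RNA came from tumours that 344SQ cells formed under the skin of syngeneic mice. 344SQ is a single, widely metastasising line of mouse lung adenocarcinoma, from an animal of genotype KrasLA1/+; p53R172HdelG/+, and both groups share that origin. Tumour cells were sorted by flow cytometry for CD133, and RNA of the CD133 high and of the CD133 low fraction was measured on 3 Affymetrix arrays each, 6 in all. The labels give no age, no treatment, no other sorting antibody and no number of animals behind an array, and the spread between arrays behind each p-value may therefore be technical. Values are log2 probe set values as deposited, and a difference is CD133 high minus CD133 low on that scale.

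Prominins are glycoproteins that cross the membrane several times and gather in its protrusions, such as microvilli. Prom1 encodes CD133, the antigen of the sort, and Prom2 its closest relative, found in epithelia. CD44 is the main receptor for hyaluronan and exists in many splice forms, CD24 is a small, heavily glycosylated protein held by a lipid anchor, and ALCAM (CD166) is an adhesion molecule of the immunoglobulin superfamily that binds itself and CD6. All of these occur on carcinoma cells, and CD44, CD24 and ALCAM are found on leukocytes too, so in a mixed fraction their RNA has more than 1 possible source. In such bulk RNA, fewer cells of a type and less RNA per cell cannot be told apart.

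RefSeq promoter windows of 300 bases, most of them upstream of a transcript start, were at hand for 4 of the 6 genes, Cd24a and Ly6a not among them. The 3 windows below (GRCm38.p6, minus strand, 5′ to 3′) are shown because Prom1 encodes the sorted antigen and was the member whose fractions separated, while Cd44 and Alcam had probe sets that shared another pattern across arrays. Capitals mark the GC box core GGGCGG or its reverse CCGCCC, and the core TGGGAA or its reverse TTCCCA, the letters bound by RBPJ, the DNA-binding partner of Notch.
Prom1 chr5:44101687-44101986: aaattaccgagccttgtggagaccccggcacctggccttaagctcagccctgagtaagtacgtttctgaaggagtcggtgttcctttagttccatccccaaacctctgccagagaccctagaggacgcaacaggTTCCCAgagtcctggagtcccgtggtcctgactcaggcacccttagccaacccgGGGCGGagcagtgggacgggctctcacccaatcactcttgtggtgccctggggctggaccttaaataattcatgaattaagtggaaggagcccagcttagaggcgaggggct
Cd44 chr2:102901616-102901915: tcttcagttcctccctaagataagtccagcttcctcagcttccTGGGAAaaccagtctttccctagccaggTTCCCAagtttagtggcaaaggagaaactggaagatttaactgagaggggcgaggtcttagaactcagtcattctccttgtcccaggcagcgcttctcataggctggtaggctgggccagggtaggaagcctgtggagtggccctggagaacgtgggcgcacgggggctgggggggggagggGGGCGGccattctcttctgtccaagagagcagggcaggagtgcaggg
Alcam chr16:52453032-52453331: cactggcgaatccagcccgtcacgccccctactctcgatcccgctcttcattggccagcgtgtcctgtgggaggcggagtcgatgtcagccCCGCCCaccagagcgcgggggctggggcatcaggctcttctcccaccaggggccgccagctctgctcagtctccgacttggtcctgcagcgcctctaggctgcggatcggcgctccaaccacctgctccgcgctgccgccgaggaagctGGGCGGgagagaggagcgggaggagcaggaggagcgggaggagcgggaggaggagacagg
TGGGAA or TTCCCA occurred 1 time in this Prom1 window, the first of 2 in the RefSeq table, 2 times in that of Cd44 and 0 times in that of Alcam, and in 25.6% of all 32851 RefSeq windows of 300 bases. GGGCGG or CCGCCC occurred 1, 1 and 2 times, and in 35.7% of all windows. The second Prom1 window, chr5:44094719-44095018, held 0 matches of either. A match describes letters and shows no binding, and the lack of one says only that these letters are not in the window.

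The arrays of the CD133 high fraction were not alike, which bears on every value that follows. Across all probe sets CD133 high replicate 1 had a mean Spearman correlation of 0.973 with the CD133 low arrays and 0.931 with the other CD133 high arrays, a description over probe sets that share arrays. The Gapdh control at the 3′ end exceeded the middle one by −0.13 on CD133 high replicate 1, by 0.44 and 0.46 on CD133 high replicates 2 and 3, and by −0.09 to −0.07 on the CD133 low arrays. The bacterial hybridisation controls averaged 10.01, 10.94 and 10.70 on CD133 high replicates 1, 2 and 3 and 9.80 to 10.14 on the CD133 low arrays. The part of these control differences in the members' values was not tested. Each member's difference is therefore given with all arrays and without CD133 high replicate 1. That second fit sets only CD133 high replicates 2 and 3 against the CD133 low arrays. In it, the fraction and these control differences cannot be told apart.

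**Figure D1:**
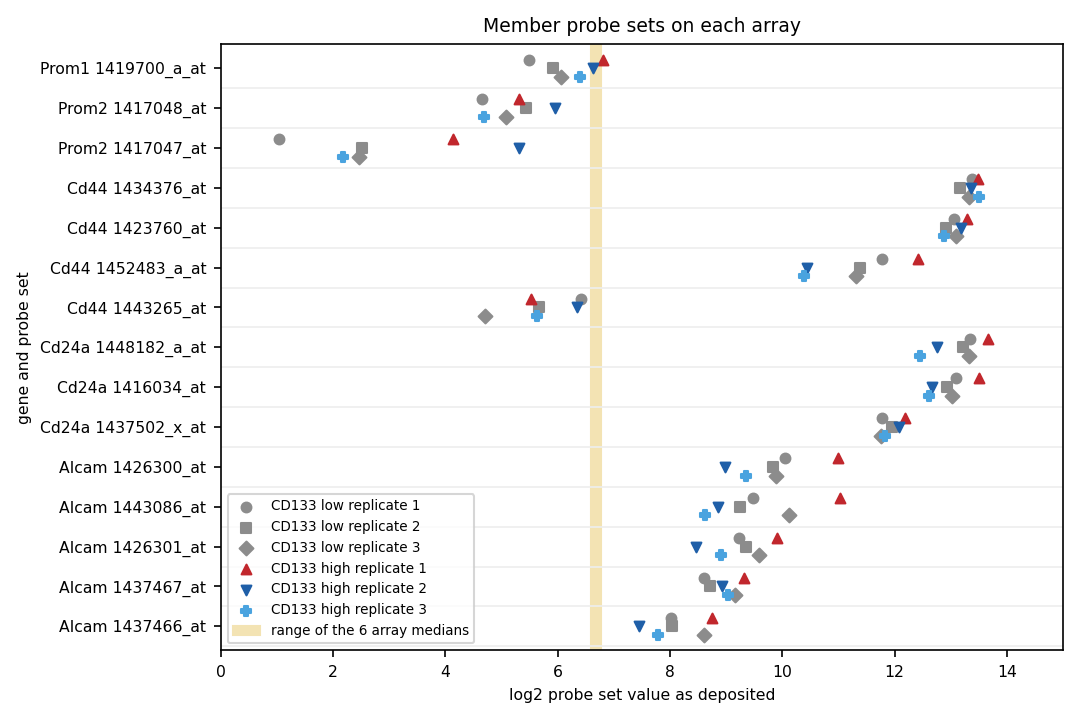
Log2 value as deposited (x axis) of each of the 15 member probe sets (rows) on the 6 arrays, with grey marks for CD133 low, coloured marks for CD133 high and a band over the range of the array medians, 6.60 to 6.77. The Prom1 marks of CD133 high lie close to this band and those of CD133 low to its left, and both Prom2 probe sets lie below it.

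Prom1 was the member whose fractions did not overlap. Its probe set 1419700_a_at stood at 5.49, 5.92 and 6.06 on the CD133 low arrays and at 6.80, 6.63 and 6.40 on CD133 high replicates 1, 2 and 3. All CD133 high values thus lay above all CD133 low values. The CD133 high values were close to the array medians of 6.60 to 6.77, and the CD133 low values lay below these medians. The CD133 high mean was 6.61 ± 0.203 (SD, n = 3) and the CD133 low mean 5.82 ± 0.294 (SD, n = 3). The difference of 0.79 (SE 0.26, 95% confidence interval 0.18 to 1.40), or 1.73-fold, had an unadjusted p of 0.0182 and an adjusted p of 0.297 in limma, and so did not pass the threshold of 0.05. Fractions were likewise apart in 20.8% of all probe sets, 10.3% with CD133 high above. Since the cells were sorted on this gene's product, the value checks the labels and is no finding.

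Prom1 differed in the same direction on each CD133 high array. It was 0.69 without CD133 high replicate 1 (SE 0.27, adjusted p = 0.125 in limma), and on that array alone it was 0.98 (adjusted p = 0.462). The genes whose profile over the 6 arrays was most like that of Prom1, by the root mean square difference of centred log2 values among 10673 genes, were 4833447I15Rik (0.156), Taf7 (0.165) and Rbm48 (0.182). Taf7 encodes a subunit of the general transcription factor TFIID. These genes were picked for that likeness, so their own differences of 0.83, 0.65 and 0.49 are a description.

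Prom2 was dim on every array. Its brighter probe set, 1417048_at, stood at 4.65, 5.44 and 5.08 on the CD133 low arrays and at 5.32, 5.95 and 4.69 on CD133 high replicates 1, 2 and 3. The fractions overlapped, and the difference of 0.26 had a confidence interval of −0.72 to 1.25 (adjusted p = 0.758 in limma), and was 0.26 again without CD133 high replicate 1 (adjusted p = 0.736). The other probe set, 1417047_at, stood at 1.04, 2.52 and 2.47 on the CD133 low arrays and at 4.14, 5.32 and 2.17 on the CD133 high arrays, near the bottom of the scale. CD133 high replicates 1 and 2 lay above all CD133 low arrays there and CD133 high replicate 3 among them. Its difference of 1.87 (confidence interval −0.21 to 3.94, adjusted p = 0.342) was 1.73 without CD133 high replicate 1 (adjusted p = 0.289) and 0.11 when values below 5 were set to 5. The nearest profiles to 1417048_at were those of Ifnz (root mean square difference 0.154) and Plek2 (0.176).

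Cd44 was bright at 3 of its 4 probe sets, and these did not move together. Probe set 1434376_at stood at 13.38, 13.17 and 13.33 on the CD133 low arrays and at 13.48, 13.36 and 13.51 on the CD133 high arrays. Its difference was 0.16 with a confidence interval of −0.22 to 0.54 (adjusted p = 0.621 in limma). At 1423760_at the values were 13.06, 12.92 and 13.10 on the CD133 low arrays, against 13.28, 13.18 and 12.87 on the CD133 high arrays, with a difference of 0.08 (−0.34 to 0.51, adjusted p = 0.825). When CD133 high replicate 1 was left out, these differences were 0.15 and −0.0019 (adjusted p = 0.442 and 0.997). At these probe sets a change in either direction of more than about 1.5-fold lay outside the interval of the difference over all arrays.

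Another bright Cd44 probe set spread far more within the CD133 high fraction. Probe set 1452483_a_at, of a kind that can match several transcript forms of a gene, stood at 11.77, 11.38 and 11.31 on the CD133 low arrays. On CD133 high replicates 1, 2 and 3 it stood at 12.42, 10.44 and 10.39, so 1 array lay above and the other two below every CD133 low array. The difference with all arrays was −0.40 (SE 0.54, adjusted p = 0.715). Once CD133 high replicate 1 was left out, Cd44 fell at this probe set by 1.07 (SE 0.16, adjusted p = 0.0108 in limma), whereas CD133 high replicate 1 alone stood 0.94 above the CD133 low mean (adjusted p = 0.371).

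The dim probe set of Cd44, 1443265_at, ranged from 4.71 to 6.42 on the CD133 low and from 5.53 to 6.35 on the CD133 high arrays and did not separate the fractions (0.24, adjusted p = 0.815 in limma, and 0.39, adjusted p = 0.65, without CD133 high replicate 1). At the brightest Cd44 probe set the nearest profiles were those of Hira, a histone chaperone gene (0.028), and Actg1, which encodes cytoplasmic actin (0.029). Both are flat profiles, like that of Cd44 there.

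Cd24a, among the brightest members, had the same split within the CD133 high fraction at 2 of its 3 probe sets. Probe set 1448182_a_at stood at 13.34, 13.22 and 13.32 on the CD133 low arrays and at 13.66, 12.76 and 12.46 on CD133 high replicates 1, 2 and 3. The CD133 low arrays lay within a narrow range (SD 0.0657, against 0.628 in the CD133 high fraction), with CD133 high replicate 1 above it and the other two arrays below. The difference was −0.34 (confidence interval −1.08 to 0.41, adjusted p = 0.595 in limma). With CD133 high replicate 1 left out it fell by 0.69 (SE 0.13, adjusted p = 0.0205), while that array alone stood 0.37 higher than the CD133 low mean (adjusted p = 0.451).

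The second Cd24a probe set, 1416034_at, stood at 13.10, 12.93 and 13.02 on the CD133 low arrays and at 13.50, 12.67 and 12.62 on the CD133 high arrays. CD133 high replicate 1 again lay above and the other CD133 high arrays below all CD133 low arrays. The difference was −0.08 with all arrays (adjusted p = 0.885 in limma) and −0.37 without CD133 high replicate 1, which missed the threshold (adjusted p = 0.0616). Probe set 1437502_x_at, of a kind that can match other genes, lay between 11.75 and 11.95 on the CD133 low arrays and between 11.83 and 12.19 on the CD133 high arrays, with a difference of 0.21 (adjusted p = 0.524), or 0.13 without CD133 high replicate 1 (adjusted p = 0.51). The nearest profiles to 1448182_a_at were those of Alox5ap, which encodes an activator of leukotriene synthesis in myeloid cells (0.044), and Mmp8, the collagenase of neutrophils (0.057).

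At 4 of the 5 Alcam probe sets, too, CD133 high replicate 1 lay above and the other CD133 high arrays below every CD133 low array. Probe set 1426300_at stood at 10.04, 9.83 and 9.88 on the CD133 low arrays and at 11.00, 8.98 and 9.35 on CD133 high replicates 1, 2 and 3. CD133 high replicate 1 was thus the highest array and the other CD133 high arrays the lowest. The difference was −0.14 (confidence interval −1.31 to 1.04, adjusted p = 0.899 in limma), and without CD133 high replicate 1 Alcam fell by 0.75 (SE 0.15, adjusted p = 0.022). CD133 high replicate 1 alone stood 1.09 above the CD133 low mean (adjusted p = 0.218).

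The other Alcam probe sets repeated this order with one exception. At 1443086_at the values were 9.47, 9.25 and 10.12 on the CD133 low arrays, against 11.03, 8.86 and 8.62 on the CD133 high arrays, the widest gap between CD133 high replicate 1 and the mean of the other two arrays of its fraction among the members, 2.29. At 1426301_at they were 9.22, 9.35 and 9.58 on the CD133 low and 9.90, 8.46 and 8.90 on the CD133 high arrays. This probe set fell by 0.70 without CD133 high replicate 1 (SE 0.18, adjusted p = 0.0455 in limma), and 1443086_at differed by −0.87 (adjusted p = 0.0728). With all arrays their differences were −0.30 and −0.11 (adjusted p = 0.68 and 0.941).

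Probe set 1437466_at of Alcam stood at 8.02, 8.03 and 8.61 on the CD133 low and at 8.75, 7.45 and 7.79 on the CD133 high arrays, again with CD133 high replicate 1 on top. Its difference was −0.22 with all arrays and −0.60 without CD133 high replicate 1 (adjusted p = 0.765 and 0.13 in limma). The exception, 1437467_at, lay between 8.60 and 9.15 on the CD133 low and between 8.92 and 9.32 on the CD133 high arrays, with a difference of 0.27 (adjusted p = 0.504 in limma), or 0.16 without CD133 high replicate 1 (adjusted p = 0.588). The nearest profiles to 1426300_at were those of Arhgef3 (0.078), and Tnf, the inflammatory cytokine (0.107).

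**Figure D2:**
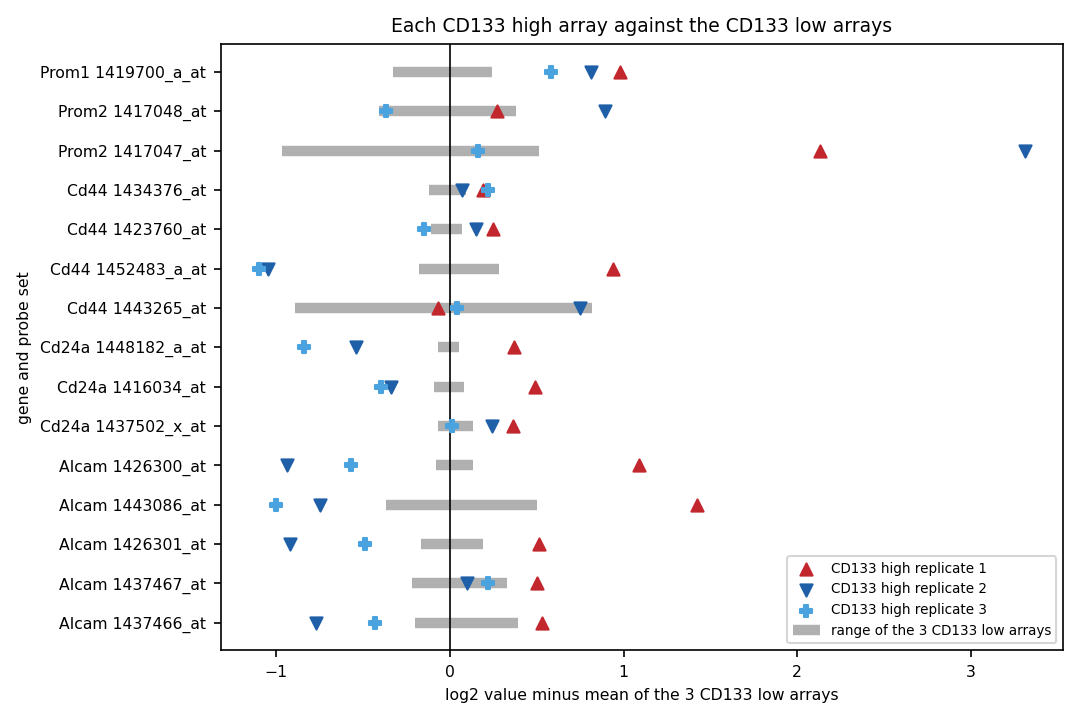
Log2 value of each CD133 high array minus the mean of the 3 CD133 low arrays (x axis) for the 15 member probe sets (rows), with grey bars over the range of the CD133 low arrays. At 7 probe sets of Cd44, Cd24a and Alcam the red mark of CD133 high replicate 1 lies right of the bar and both blue marks left of it, while all Prom1 marks lie right of the bar.

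Over the 15 probe sets, 0 passed the threshold with all arrays in limma, and 1, that of Prom1, had an unadjusted p under 0.05. Of all 45037 probe sets 0.182% passed (0.0155% higher and 0.167% lower) and 15.7% had an unadjusted p under 0.05. Without CD133 high replicate 1, 4 of the 15 fell and 0 rose, against 11.8% of all probe sets that fell and 9.5% that rose, or 21.3% together. The 4 are 1 probe set of Cd44, 1 of Cd24a and 2 of Alcam, and members of one gene are not independent of each other. With CD133 high replicate 1 alone, 0 of the 15 passed, as did 0% of all probe sets, and 7 had an unadjusted p under 0.05, against 10.4% of all.

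CD133 high replicate 1 lay above every CD133 low array at 13 of the 15 member probe sets, against 29.8% of all probe sets, and was the highest of the 6 arrays at 11, against 16.7% of all. CD133 high replicates 2 and 3 lay below every CD133 low array at 7, against 26.2% of all. Both held at the same 7 probe sets, 1 of Cd44, 2 of Cd24a and 4 of Alcam, and at 6.87% of all probe sets. These counts describe a choice of genes made with earlier results known and carry no test.

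**Figure D3:**
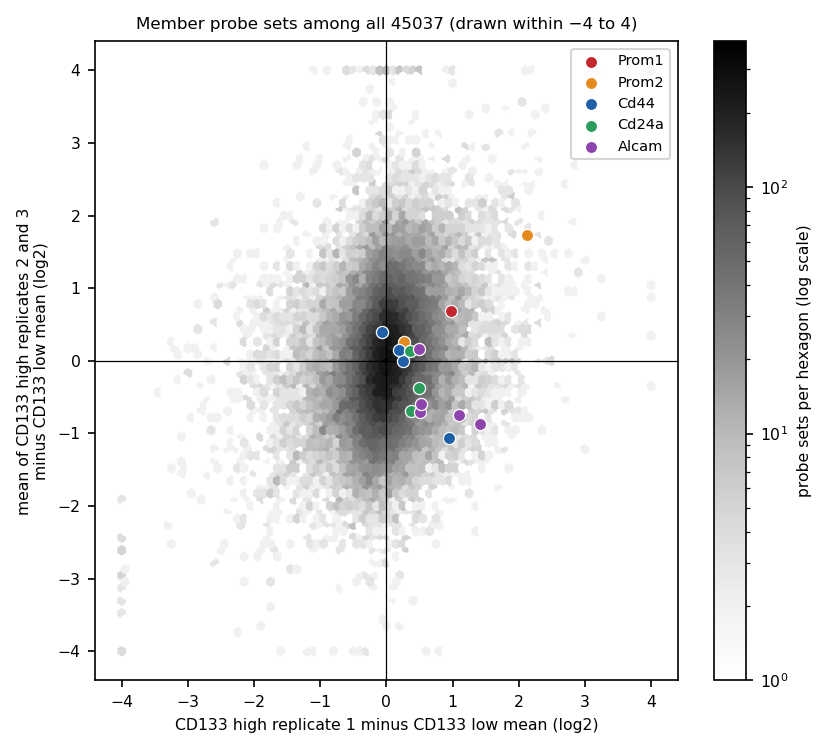
CD133 high replicate 1 minus the CD133 low mean (x axis, log2) against the mean of CD133 high replicates 2 and 3 minus the CD133 low mean (y axis, log2), with all 45037 probe sets as grey hexagons and the members in colour. Prom1 lies up and to the right of the origin, and 7 points of Cd44, Cd24a and Alcam lie at the lower right, where CD133 high replicate 1 is higher and the other CD133 high arrays lower than CD133 low.

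**Figure D4:**
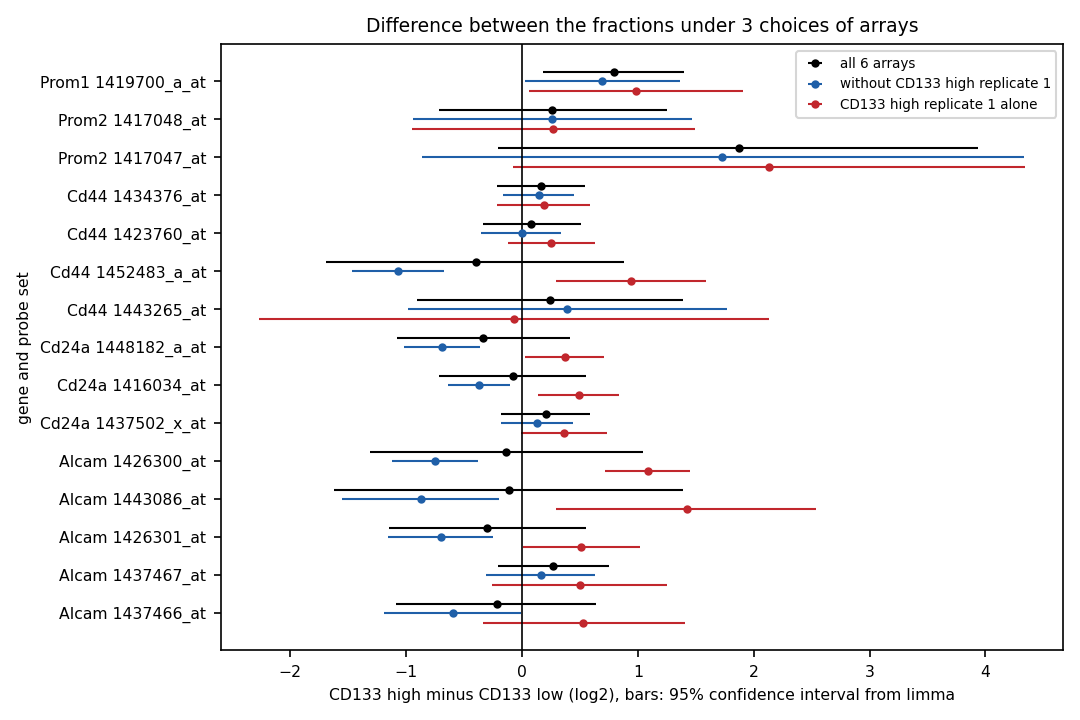
Difference of CD133 high minus CD133 low (x axis, log2) for each member probe set (rows) with its 95% confidence interval from limma, for all 6 arrays (black), without CD133 high replicate 1 (blue) and with that array as the lone CD133 high array (red). The blue and red intervals of Cd44 1452483_a_at, Cd24a 1448182_a_at and 1416034_at, and Alcam 1426300_at, 1443086_at and 1426301_at lie on opposite sides of 0. The intervals of Prom1 lie above 0 in all 3 cases.

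Other genes tied to these antigens were read from lists of surface markers, ligands and partners, at each gene's brightest probe set. None of the 128 measured genes of the 6 lists passed with all arrays in limma, against 0.253% of all 18193 genes. Without CD133 high replicate 1, 27 rose and 16 fell, against 11.7% and 14.6% of all genes.

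Among 30 other surface antigens used to sort progenitor-like cells, 6 were higher and 4 lower at an unadjusted p under 0.05, against 18.2% of all genes in either direction, with a median difference of 0.04 beside 0.0013 over all genes. Itga6, the laminin receptor chain CD49f, stood at 11.02, 10.94 and 10.99 on the CD133 low and at 11.49, 11.94 and 12.12 on the CD133 high arrays. Lgr5, an R-spondin receptor of epithelial stem cells, stood at 7.26, 7.49 and 7.58 and at 7.97, 8.14 and 8.35. For both genes every CD133 high array lay above every CD133 low array, but neither passed with all arrays (differences 0.87 and 0.71, adjusted p = 0.222 and 0.276). Fractions were apart, in either direction, at 10 of the 30 genes and at 4298 of all 18193 genes. Genes are named here for the smallest p of their list, so such separation is a description. Both rose without CD133 high replicate 1, by 1.05 and 0.80 (adjusted p = 0.00429 and 0.0244). Flt3, a receptor of haematopoietic progenitors and dendritic cells, and Cd55, which restrains complement, both had a difference of −0.82 (adjusted p = 0.209 and 0.212), and without CD133 high replicate 1 they fell by 0.91 and 0.78 (adjusted p = 0.0134 and 0.0268). Without CD133 high replicate 1, 8 of the list rose and 5 fell, against 11.7% and 14.6% of all genes.

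For CD44, 22 genes of hyaluronan metabolism, ligands, cytoskeletal linkers, sheddases and splicing factors were measured, with a median difference of 0.19. At an unadjusted p under 0.05, 1 was higher and 1 lower, against 18.2% of all genes in either direction. Tnfaip6, which modifies hyaluronan, stood at 11.67, 11.78 and 11.92 on the CD133 low and at 12.01, 12.24 and 12.58 in the CD133 high fraction (0.48, adjusted p = 0.310). Nf2, whose product merlin binds the tail of CD44, had a difference of −0.62 (adjusted p = 0.289). When CD133 high replicate 1 was left out, Tnfaip6 rose by 0.62 and Nf2 fell by 0.73 (adjusted p = 0.0359 and 0.0173). Lyve1, a hyaluronan receptor of lymphatic endothelium and some macrophages, stood at 8.64 on CD133 high replicate 1 and at 10.43 and 10.79 on CD133 high replicates 2 and 3, against 8.25 to 8.99 on the CD133 low arrays. Lyve1 and Has3, a hyaluronan synthase, had differences of 1.29 and 0.75 with all arrays (adjusted p = 0.323 and 0.324), and for both the fractions overlapped. Without CD133 high replicate 1, Lyve1 and Has3 rose by 1.94 and 1.05 (adjusted p = 0.0074 and 0.0311 in limma). In that fit 4 of the 22 genes rose and 1 fell, against 11.7% and 14.6% of all genes.

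Of the 14 ALCAM ligands and related adhesion molecules, Alcam itself included, 3 were higher and 2 lower at an unadjusted p under 0.05. Over all genes that share was 18.2% in either direction, and the list had a median of 0.21. Cd6, the T-cell ligand of ALCAM, stood at 7.93, 7.91 and 7.79 on the CD133 low and at 6.92, 6.68 and 6.92 in the CD133 high fraction (−1.04, adjusted p = 0.116). In contrast to Alcam, Cd6 was lower on each CD133 high array, and it fell by 1.08 without CD133 high replicate 1 (adjusted p = 0.0102). Fractions were apart, in either direction, at 4 of the 14 genes, against 4298 of all 18193 genes. Bcam, a laminin receptor, Cadm1 and Chl1, both adhesion molecules, had differences of 1.26, 0.64 and 1.21 with all arrays (adjusted p = 0.294, 0.297 and 0.300), and rose by 1.68, 0.80 and 1.70 without CD133 high replicate 1 (adjusted p = 0.00257, 0.014 and 0.0098).

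The 24 CD24 ligands and genes of the lipid anchor had a median of −0.14. At an unadjusted p under 0.05, 3 were higher and 2 lower, against 18.2% of all genes in either direction. Siglecg, a lectin that binds CD24, had values of 6.59, 6.69 and 6.46 on the CD133 low and 5.75, 5.88 and 4.92 in the CD133 high fraction (−1.06, adjusted p = 0.297). Cd52, which encodes a small anchored leukocyte glycoprotein, stood at 12.92 to 13.13 on the CD133 low arrays, at 12.90 on CD133 high replicate 1 and at 11.49 and 11.07 on the others. Piga and Pgap1, which act in making and trimming the anchor, had differences of 0.66 and 0.78 (adjusted p = 0.297 and 0.303). When CD133 high replicate 1 was left out, Cd52 fell by 1.74 (adjusted p = 0.00352), against −1.20 with all arrays (adjusted p = 0.303). Siglecg, Piga and Pgap1 did not pass there either (−1.18, 0.67 and 0.96, adjusted p = 0.06, 0.0909 and 0.0688).

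With no probe set assigned to Ly6a in the annotation used here, 20 other genes of its superfamily were read, with a median of −0.12. At an unadjusted p under 0.05, 1 was higher and 3 lower, against 18.2% of all genes in either direction. Ly6e, a broadly expressed relative, stood at 12.42, 12.52 and 12.37 on the CD133 low and at 11.91, 11.39 and 11.41 in the CD133 high fraction (−0.87, adjusted p = 0.214), and without CD133 high replicate 1 it fell by 1.04 (adjusted p = 0.00409). Plaur, the urokinase receptor, stood at 12.03 to 12.39 on the CD133 low and at 12.76 to 12.90 in the CD133 high fraction (0.59, adjusted p = 0.291). Ly6k and Ly6g6e had differences of −0.92 and −0.84 (adjusted p = 0.286 and 0.297). When CD133 high replicate 1 was left out, Plaur rose by 0.56 and Ly6g6e fell by 1.07 (adjusted p = 0.0426 and 0.0298), while Ly6k, at −0.74, did not pass (adjusted p = 0.0665). Members of this family are close in sequence, so probe sets may share signal between them.

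A list on apical membranes and microvilli, with 20 genes measured, also holds the caveolins Cav1 and Cav2. Its median was 0.25. At an unadjusted p under 0.05, 6 were higher and 1 lower, against 18.2% of all genes in either direction. Cav1 and Cav2, which encode the coat proteins of caveolae, had differences of 0.93 and 1.02 (adjusted p = 0.297 and 0.285). Cdhr2, a protocadherin that links microvilli, stood at 8.50, 8.51 and 8.52 on the CD133 low and at 8.88, 9.29 and 9.11 in the CD133 high fraction (0.58, adjusted p = 0.285). Eps8, which caps and bundles actin, had a difference of 0.56 (adjusted p = 0.297). Without CD133 high replicate 1, 5 of the list rose and 1 fell, against 11.7% and 14.6% of all genes. Cav1, Cav2 and Cdhr2 rose, by 1.28, 1.30 and 0.69 (adjusted p = 0.00315, 0.00808 and 0.0137), and Eps8, at 0.49, did not pass (adjusted p = 0.105). The gene that fell was Podxl, at −2.27 (adjusted p = 0.00814 in limma), against −1.63 with all arrays (adjusted p = 0.297).

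The fractions held RNA of several cell types, as judged by marker lists. Epcam, an epithelial adhesion molecule, stood at 10.39 to 10.47 on the CD133 low and at 10.20 to 10.86 on the CD133 high arrays, and Ptprc, the leukocyte antigen CD45, at 12.77 to 13.20 and at 12.74 to 13.20. The mean log2 level of the 15 epithelial markers was 8.89 to 9.22 on the CD133 low and 8.82 to 9.04 on the CD133 high arrays. The highest of these, 9.22 on CD133 low replicate 2, includes Esrp1, listed at 3.04 there and at 0.00 on every other array. That of 12 pan-leukocyte markers was 12.09 to 12.10 on the CD133 low arrays, against 12.05, 11.49 and 11.33 on CD133 high replicates 1, 2 and 3.

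Neutrophil markers split the CD133 high fraction in the order seen for Cd24a, Alcam and Cd44 1452483_a_at. The mean level of the 8 measured was 11.01 to 11.31 on the CD133 low arrays, 11.97 on CD133 high replicate 1 and 10.52 and 10.16 on CD133 high replicates 2 and 3. At 5 of the 8, CD133 high replicate 1 lay above and the other two below every CD133 low array, as at 7.07% of all genes. S100a9, a calcium-binding protein abundant in neutrophils, stood at 13.43 to 13.64 on the CD133 low arrays and at 14.05, 12.50 and 11.68 on the CD133 high arrays. At 0 of the 8 neutrophil genes was a value of 0 listed. The same pattern held at 4 of 12 endothelial, 3 of 12 pan-leukocyte and 2 of 15 epithelial markers. The part of these cells in the values of Cd24a, Cd44 and Alcam was not tested.

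T and natural killer cell markers and B and plasma cell markers were lower on every CD133 high array than on any CD133 low array, as list means. So were the mast cell and the pan-leukocyte lists, by less. The 15 T and natural killer cell genes averaged 8.49 to 8.70 on the CD133 low and 6.88 to 7.38 on the CD133 high arrays, with 6 genes that fell in limma. The 11 B and plasma cell genes averaged 9.68 to 9.89 and 7.61 to 8.43, with 3 that fell. Of all genes 0.253% passed in either direction. Mast cell markers (10 genes) averaged 8.93 to 9.08 and 8.16 to 8.84, and macrophage and monocyte markers (13 genes) 12.13 to 12.29 and 11.91 to 12.31. Endothelial markers (12 genes) averaged 7.84 to 8.0 and 7.89 to 8.21, fibroblast and pericyte markers (14 genes) 11.62 to 11.73 and 11.62 to 11.77, and erythroid markers (7 genes) 6.46 to 6.97 and 5.55 to 6.78. At the 7 probe sets of Cd24a, Alcam and Cd44 that split the CD133 high fraction, CD133 high replicates 2 and 3 lay below the CD133 low arrays, as in the lymphocyte lists. Only CD133 high replicate 1 differed. It lay above the CD133 low arrays at these probe sets and below them in those lists. The part of lymphocytes in the values of these members was not tested.

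**Figure D5:**
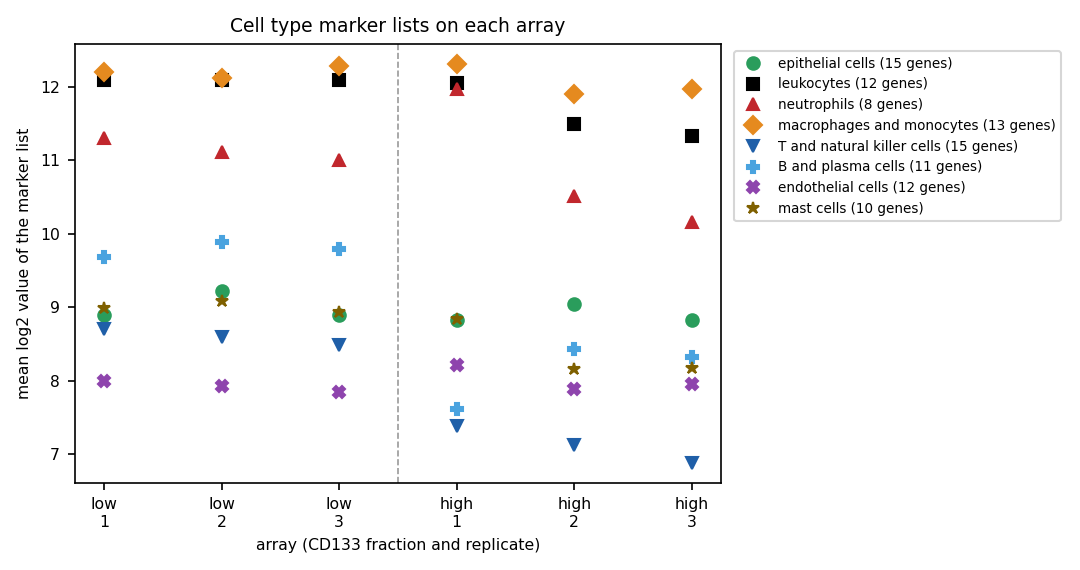
Mean log2 value (y axis) of 8 cell type marker lists on each of the 6 arrays (x axis), CD133 low on the left of the dashed line and CD133 high on the right. Neutrophil markers (red triangles) are highest on CD133 high replicate 1, at 11.97, and lowest on CD133 high replicates 2 and 3, at 10.52 and 10.16. Macrophage and monocyte markers have the same order over a smaller range. T, natural killer, B, mast cell and leukocyte markers are lower on all CD133 high arrays.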

How the data were processed

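Gene expression was measured on Affymetrix arrays in 3 CD133 high and 3 CD133 low samples. The authors deposited 1 value per probe set, on a scale whose range shows it to be log2. The summary and normalization of the probes are not given in the sources used here. Per the series' design text the array was a model smaller than the 45101 probe sets of the table, so the platform is uncertain, and probe sets were named by their IDs in the platform annotation. Precision is limited by the small number of arrays. Replicate numbers follow accession order, since the labels give none, and pair no samples. No pair of arrays shared more than 702 values.

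Of 45101 probe sets, 64 controls were left out. The platform annotation gave 34945 of the rest 1 gene, 932 several and 9160 none, and 34741 matched RefSeq by Entrez ID. A gene on a list was represented by its probe set with the highest mean. All probe sets entered the comparison of the fractions, made with limma 3.58.1 in R 4.3.3, two-sided, with a variance trend and Benjamini-Hochberg adjustment over the 45037 probe sets, at a threshold of 0.05. No exact permutation test was used, because 0.1 is the smallest p that it allows here. Steps were tested on simulated data. Members and lists were chosen with earlier results of these data known. Named are every member probe set, up to 4 genes of each list with the smallest p, and Podxl, the apical list gene that fell without CD133 high replicate 1. Also named are the 3 (Prom1) or 2 genes with the nearest profile, at a mean of at least 7. The other genes were named as defining markers. Alternatives were 3 scalings, a floor of 5, dropping probe sets in the dimmest 25% or 50%, other variance models, array weights, leaving out each array, and CD133 high replicate 1 alone.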

Additional observations from a re-analysis of the deposited data

How the results depend on the processing

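Of 235 recomputed differences of the 15 member probe sets, 209 kept their direction and their side of the threshold, 4 newly passed it and 22, at 10 probe sets, changed direction. No setting made a member pass except leaving out CD133 high replicate 1, and Prom1 stayed between 0.63 and 0.98 (adjusted p 0.0999 to 0.646 in limma). With CD133 high replicate 1 alone, where the lone array is assumed to vary like the CD133 low arrays, the difference was 0.94 for Cd44 1452483_a_at, −0.07 for Cd44 1443265_at, 0.37 for Cd24a 1448182_a_at and 0.49 for Cd24a 1416034_at. There it was 1.09, 1.42, 0.51 and 0.53 for Alcam 1426300_at, 1443086_at, 1426301_at and 1437466_at, and −0.03 for Lyve1. Quantile normalization turned Cd24a 1416034_at to 0.03. Leaving out 1 array at a time gave −0.05 to 0.58 for Prom2 1417048_at, −0.0019 to 0.20 for Cd44 1423760_at, −0.21 to 0.65 for Cd44 1443265_at and −0.37 to 0.07 for Cd24a 1416034_at. It gave −0.75 to 0.26, −0.87 to 0.33, −0.70 to 0.01 and −0.60 to 0.05 for the same 4 Alcam probe sets. Beyond the alternatives' own construction, the cause was not tested.

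Over all probe sets, 7 were higher and 75 lower with all arrays. These counts were 12 and 152 with equal medians, 13 and 144 with equal 75th percentiles, 10 and 180 without the dimmest 25%, 11 and 164 without the dimmest 50%, 1 and 6 with no variance trend, 13 and 172 with a robust trend, 2133 and 2675 with array weights, and 0 and 0 with CD133 high replicate 1 alone. With values below 5 set to 5, 31 were lower. Leaving out 1 array gave 0 to 4277 higher and 0 to 5326 lower, and 0 to 4 member probe sets lower, the highest without CD133 high replicate 1 in each case. Of the list genes 27 rose and 16 fell without that array, and 1 fell when the probe sets of each gene were averaged. No paired analysis was possible because the labels number no replicates. The dim Prom2 probe sets limit what can be said of that gene.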
